A study of Mus musculus with 2 samples.

Results

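The genes described are the 5 subunits of NF-kB and 5 genes grouped here as its inhibitors, in mouse CD8+ T cells. They are Rel, Rela, Relb, Nfkb1, Nfkb2, Nfkbia, Nfkbid, Nfkbie, Nfkbiz and Tnfaip3. Of those grouped as inhibitors 4 are of the IkB kind, and the grouping does not state how each protein acts. Chromatin accessibility was measured by ATAC-seq, in which a transposase cuts open DNA and leaves sequencing adapters there. The members were chosen by name, and a peak was taken as theirs when it touched the span of the gene in build mm10 with 50 kb added on each side. These are 10 of 21887 protein-coding genes, and their windows, 1247 kb in all, held 121 of 64910 treatment peaks and 139 of 85137 control peaks. The study deposited 1 library titled treatment and 1 titled control, both from CD8+ T cells of unstated strain and age. A treatment field of the labels reads "Combined treatment" for the library titled treatment and "Treatment" for the library titled control. What was given to the cells is not said, and the genotype field holds no allele. With 1 library in each group there is no replicate, so no difference below was tested and each one compares these libraries, not the conditions.

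NF-kB factors are dimers of 5 related proteins that bind short DNA motifs and switch on genes of lymphocyte activation and survival. In resting T cells they are held in the cytoplasm by proteins of the IkB kind. Signals from the antigen receptor, costimulatory receptors and TNF receptors lead to the breakdown of these inhibitors and free the dimers. The genes of several inhibitors, Nfkbia and Tnfaip3 among them, are themselves targets of NF-kB, which makes the pathway limit itself.

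At the known or assumed starts of 8 of these 10 genes the accessible region had at least 0.9 times the control coverage in the treatment library. The same holds for 39.1% of all shared peaks that cover a start, and for 43.0% of those in the members' range of control coverage. This comparison was made after the peaks were seen, and 6 of the 7 genes with a known start reached 0.9. Most regions around the genes were weaker in treatment. The 7 members whose start is known here had a peak there in both libraries, against 57.2% of the 17492 protein-coding genes with a known start. For Relb, Nfkb1 and Nfkbiz the start was taken as the end of the gene that had a peak, so their having one is no result. At these start peaks the median ratio of summit coverage, treatment over control, was 1.006, against 0.720 over the other 104 shared peaks of the windows. Nfkb1 and Nfkb2 were the exceptions, with start peaks at 0.753 and 0.681 of their control coverage. Start peaks of other genes were also less reduced than distal peaks. The median ratio was 0.848 over all shared peaks that cover a start, and 0.678 over shared peaks away from gene ends in all windows. By fold enrichment the median start ratio was 1.02 for the members and 0.979 over all start peaks. The ratio of peak numbers, treatment over control, was 0.871 in these windows, against 0.768 in those of all protein-coding genes. As a share, treatment held 46.5% of the member peaks of both libraries (exact interval 40.4 to 52.8%). That interval holds the 43.4% of all windows. However, it counts a shared region once in each list as if the peaks were independent, so it does not measure the gap between these ratios. With the control list cut to the length of the treatment list the ratios of peak numbers were 1.04 and 1.003.

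Summit coverage is the number of reads piled up at the highest point of a peak. It was recovered as a whole number from the authors' fold enrichment and p-value for 99.98% of treatment and 99.99% of control peaks, among them all peaks of these windows. Read totals were not used here, and the only sign of relative depth was the lowest background of each list. In reads it was 15.05 in treatment and 14.15 in control, with narrowest peaks of 186 and 176 bp. Per bp of the narrowest peak the ratio, treatment over control, was 1.006. The coverage ratios below were not adjusted for either difference. Over the windows of all protein-coding genes the median coverage ratio at 55131 shared peaks was 0.711, so a ratio near that value is what most peaks of these libraries show. Of the CD8 T cell markers Cd8a, Cd8b1, Cd3d, Cd3e, Cd3g, Cd247, Lck and Zap70, 8 of 8 had a peak at a gene end in each library. Gene-end peaks were also found at 2 of 5 B cell markers in each library, at 3 of 5 myeloid markers in treatment and 5 of 5 in control, at 2 of 2 helper T cell markers and at 0 of 2 NK cell markers in each. The gene-end peaks of a list numbered 2 and 2 for B cells, 4 and 6 for myeloid cells and 3 and 3 for helper T cells, in treatment and in control. The part of other cells in the values below was not tested.

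**Figure D1:**
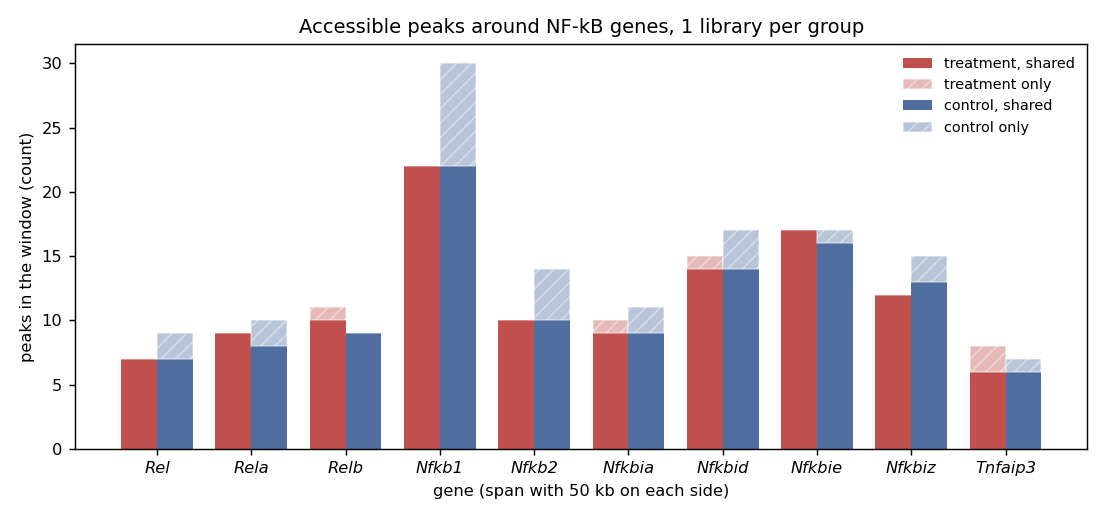
Number of peaks (vertical axis) in the window of each gene, in treatment (left bar) and control (right bar), with 1 library per group and no error bars. Solid parts are peaks that overlap a peak of the other library and hatched parts are peaks of that library only. Nfkb1 has the largest gap, with 22 peaks in treatment and 30 in control.

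The starts themselves are shown for 5 of the genes because their peaks carry the main comparison and because they include both the highest and the lowest start ratio. The sequences are the 250 bases before a RefSeq transcription start in GRCm38.p6, the assembly of mm10, read 5′ to 3′ on the strand of the gene. Capitals mark matches to the NF-kB decamer consensus on either strand, and neighbouring matches that overlap run together. Each of the 5 sequences shown holds a match, so they do not stand for all starts of the members. Among those not shown, the start of Rela, starts 1 and 3 of Nfkbid and start 2 of Tnfaip3 hold none. The sequence shown for Tnfaip3 is that of its start 1.
Rel (chr11:23770970-23771219, minus strand): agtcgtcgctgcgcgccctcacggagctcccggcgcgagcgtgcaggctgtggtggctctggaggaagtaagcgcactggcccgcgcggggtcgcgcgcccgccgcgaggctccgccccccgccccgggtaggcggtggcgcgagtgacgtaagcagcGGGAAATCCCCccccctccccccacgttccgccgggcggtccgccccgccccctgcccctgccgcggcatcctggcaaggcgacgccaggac
Nfkb2, start 1 (chr19:46304487-46304736, plus strand): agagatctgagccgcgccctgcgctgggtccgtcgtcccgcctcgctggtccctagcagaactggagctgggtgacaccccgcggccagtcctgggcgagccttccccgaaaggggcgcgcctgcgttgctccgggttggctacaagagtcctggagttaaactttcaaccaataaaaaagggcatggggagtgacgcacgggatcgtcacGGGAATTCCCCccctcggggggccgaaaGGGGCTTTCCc
Nfkbia (chr12:55492648-55492897, minus strand): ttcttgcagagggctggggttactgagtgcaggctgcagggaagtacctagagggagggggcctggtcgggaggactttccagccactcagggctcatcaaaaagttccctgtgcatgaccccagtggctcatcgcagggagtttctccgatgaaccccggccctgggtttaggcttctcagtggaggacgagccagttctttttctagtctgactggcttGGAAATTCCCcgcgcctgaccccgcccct
Nfkbid, start 2 (chr7:30422156-30422405, plus strand): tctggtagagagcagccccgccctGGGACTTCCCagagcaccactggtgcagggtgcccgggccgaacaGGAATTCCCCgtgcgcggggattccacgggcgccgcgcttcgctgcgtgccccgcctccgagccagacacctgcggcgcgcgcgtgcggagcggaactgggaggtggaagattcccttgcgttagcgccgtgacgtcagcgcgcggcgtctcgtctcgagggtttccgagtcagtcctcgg
Tnfaip3 (chr10:19015411-19015660, minus strand): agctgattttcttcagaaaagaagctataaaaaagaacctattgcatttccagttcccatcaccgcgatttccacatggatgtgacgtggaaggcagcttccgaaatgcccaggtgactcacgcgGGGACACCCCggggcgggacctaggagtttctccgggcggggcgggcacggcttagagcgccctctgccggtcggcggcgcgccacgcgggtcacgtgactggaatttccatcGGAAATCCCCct

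The promoter table held 12 starts of 7 members, with 3 for Nfkb2, 3 for Nfkbid and 2 for Tnfaip3. It held none for Relb, Nfkb1 and Nfkbiz, whose only gene-end peak, at the upper end of the span by coordinate, was taken as the start peak. Of the 12 starts, 11 lay under a peak in treatment and 11 in control, and the exception in each was the second start of Tnfaip3. Over the whole table a treatment peak covered 41.3% of starts and a control peak 44.4%, and 3.38% lay under a control peak alone, against 0 of these 12.

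A match to the NF-kB decamer consensus was found before 8 of the 12 starts, in 6 of the 7 genes, and Rela was the gene without one. Among all 32851 promoters of the table, 7.25% held a match in the same 250 bases, and of those under a control peak with at least 55% G and C, 10.9%. The member promoters had a median GC content of 61.8%, against 52.4% for the table. In Nfkbia the match lay 29 to 20 bases before the start, in Tnfaip3 matches lay 125 to 116 and 12 to 3 bases before it, and in Rel 2 overlapping matches spanned bases 92 to 82. The first start of Nfkb2 had overlapping matches at bases 39 to 29 and another at bases 11 to 2. Other motifs searched on both strands were the AP-1 site TGANTCA, the core TGACGT of the cyclic AMP response element, the ETS core CGGAAG and the GC box GGGCGG. They were found before 3, 3, 3 and 9 of the 12 starts, against 6.75%, 6.47%, 13.6% and 32.7% of all promoters. For these motifs no share among promoters of like GC content is given, so the part of GC content was not tested. No match of one of these 5 motifs overlapped a match of another in the member promoters. A match describes letters only and does not show binding.

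Among the inhibitors, Nfkbia, which encodes IkBalpha, the main cytoplasmic inhibitor, had a start peak of 1903 reads in treatment and 1502 in control. The ratio was 1.27 (95% counting interval 1.18 to 1.36), the highest of the 10 start peaks by coverage. By fold enrichment the highest ratio was that of Nfkbid, 1.301, and Nfkbia had 1.15. On that scale Nfkbie had 1.17, and Tnfaip3 and Nfkbiz were below 1, at 0.957 and 0.928. Tnfaip3, which encodes A20, an ubiquitin-editing enzyme that shuts off signalling to NF-kB, had 1210 reads in treatment and 1173 in control. Nfkbid, which encodes the nuclear inhibitor IkBNS, had 730 and 748, at summits 753 bp apart within a broad peak, and Nfkbie, which encodes IkBepsilon, had 739 and 753. Nfkbiz, which encodes the nuclear protein IkBzeta, had the lowest coverage at the peak taken as its start, with 372 reads in treatment and 412 in control. Its start is not known here, and its deepest peak, 10.8 kb inside the lower end, had 1546 reads in treatment and 1698 in control. Of these 5 genes, only Nfkbia had a start ratio whose counting interval did not include 1.

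Among the subunits, Rel, which encodes c-Rel, a subunit abundant in lymphocytes, had a start peak of 1649 reads in treatment and 1542 in control. Rela, which encodes the p65 subunit of the classical pathway, had 1308 and 1268. Relb, the partner of p52 in the alternative pathway, had the highest coverage at the peak taken as its start, with 2084 and 1987. The start ratios of these 3 genes were 1.07 (0.997 to 1.15), 1.03 (0.954 to 1.115) and 1.05 (0.986 to 1.116). By fold enrichment those of Rel and Rela were also above 1, at 1.17 and 1.09, and that of Relb was below it, at 0.921. The genes of the 2 precursor proteins differed from them. Nfkb1, which encodes p105 and p50, had 907 reads in treatment and 1204 in control, a ratio of 0.753 (0.690 to 0.822). Nfkb2, which encodes p100 and p52, had 1155 and 1696, a ratio of 0.681 (0.631 to 0.734), and this 1 peak, 3.58 kb inside the lower end of the span, covered all 3 of its starts. These intervals cover counting error only.

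In all, 5 of the 10 start peaks had higher coverage in treatment, against 18.4% of the 10688 shared control peaks that cover a start in the promoter table. At least 1.5-fold lower coverage was found at 0 of 10, against 23.5% of the same peaks. The median ratio over all such start peaks was 0.848. Over the 7598 whose control coverage lay between 412 and 1987 reads, the range of the members, the median was 0.870, with 20.9% higher in treatment, 43.0% at a ratio of at least 0.9 and 15.2% at least 1.5-fold lower. The ends of that range come from Nfkbiz and Relb, whose starts are assumed. The start peak was above the median of the other shared peaks of its own window in 10 of 10 members, by little in Nfkbiz (0.903 against 0.898) and by more in Nfkbia (1.27 against 0.821) and Rel (1.07 against 0.670). The same holds for 73.7% of the 7497 genes with a shared peak at a known start and at least 5 other shared peaks, so a start peak above its surroundings is common. Measured by fold enrichment, which divides by local background, the start peaks had a median ratio of 1.02, against 0.979 over all start peaks, so the gap between the members and other genes was smaller on that scale.

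**Figure D2:**
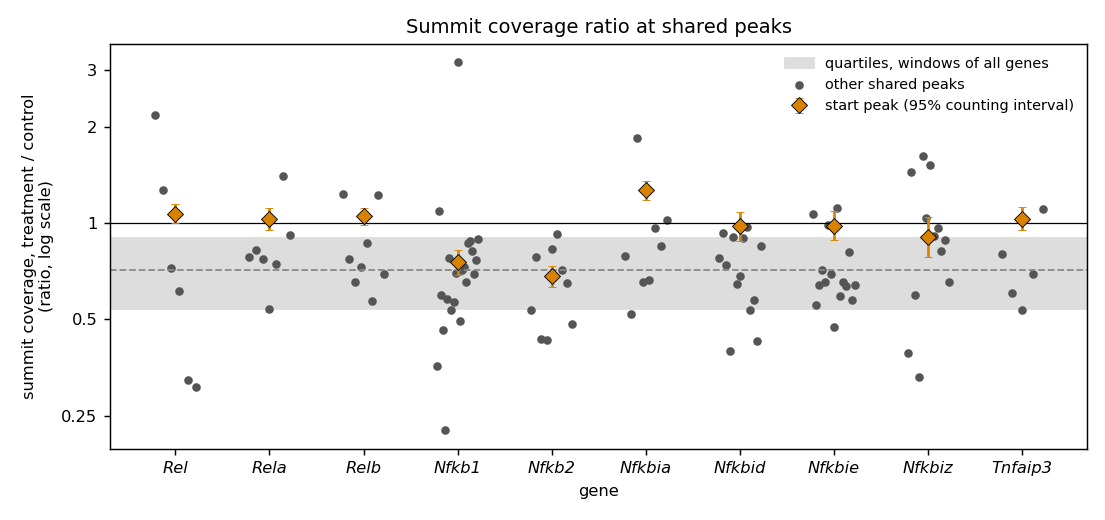
Ratio of summit coverage, treatment over control (log scale), for each shared peak of the 10 windows. Diamonds are the start peaks with 95% counting intervals, dots the other shared peaks, and the grey band the quartiles over the windows of all genes (0.539 to 0.8997) with their median of 0.711 dashed. The start peaks of Nfkb1 and Nfkb2 lie inside the band and the other 8 above it.

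**Figure D3:**
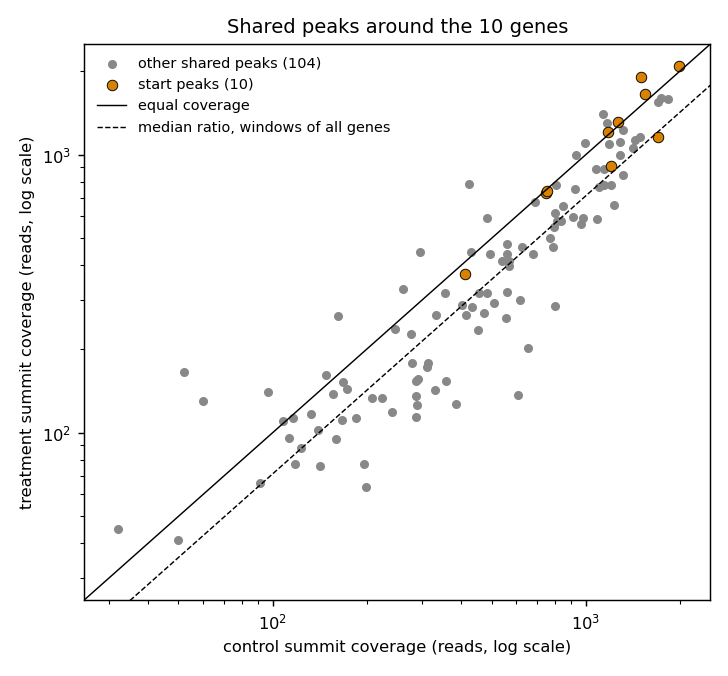
Summit coverage in reads of the 114 shared peaks, treatment (vertical, log scale) against control (horizontal, log scale). Of the 10 start peaks in orange 8 have a ratio of at least 0.9 and lie near the line of equal coverage, with Nfkb1 and Nfkb2 below it, and most of the 104 other peaks in grey lie below it.

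Most shared peaks were weaker in treatment, both here and in the windows of all genes. Of the 114 shared control peaks, 93 had lower coverage in treatment, or 81.6%, against 84.5% over all windows. Coverage at least 1.5-fold lower was found at 43 of 114, or 37.7%, against 43.4% over all windows, and at least 1.5-fold higher at 5, or 4.39%, against 2.85%. The first 2 of these shares are near the background, and the third rests on 5 peaks. Shared control peaks were wider than their treatment partner in 84 of 114 pairs, or 73.7%, against 77.9% over all windows, and summits lay within 50 bp of each other in 85 pairs.

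Around Rel (chr11:23736847-23770969) there were 7 peaks in treatment and 9 in control, and coverage at the shared peaks on its 2 sides differed in opposite directions. On the side before the start, all 3 peaks were weaker in treatment. At 11.3 kb upstream coverage was 113 reads in treatment and 184 in control, at 35.0 kb it was 64 and 198, and at 48.0 kb it was 201 and 654. The last of these, at chr11:23818713-23819299 in control, had the highest fold enrichment of the control peaks in the window, 23.6, and a coverage ratio of 0.307 (0.261 to 0.361). On the other side, inside the neighbouring gene Pus10, both peaks had higher coverage in treatment, though the nearer one had the lower fold enrichment there, 14.6 against 17.2 in control. At 40.7 kb beyond the end of Rel coverage was 130 reads in treatment and 60 in control, a ratio of 2.17 (1.58 to 2.99), and at 36.9 kb it was 329 and 260. The 2 control-only peaks, of 41 and 43 reads, had the lowest coverage of the control peaks in the window.

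Nfkb1 (chr3:135584655-135691969) had the most peaks of the 10 genes and the most that were missing from treatment, with 22 peaks in treatment, all shared, and 30 in control, of which 8 were control-only. That is 26.7% of its control peaks, close to the 28.4% of control peaks without a treatment overlap in the windows of all protein-coding genes. The 15 treatment and 18 control peaks inside the gene body were spread along its 107 kb. Of 22 shared peaks 20 had lower coverage in treatment, with a median ratio of 0.706. The lowest ratio of the 114 shared peaks was here, at 6.04 kb inside the lower end, with 137 reads in treatment and 608 in control, a ratio of 0.225 (0.186 to 0.272). The highest was here too, at chr3:135621396-135621690, 36.9 kb inside the lower end, with 165 and 52 reads, a ratio of 3.17 (2.31 to 4.42). By fold enrichment the strongest peak lay 39.5 kb above the upper end, with 21.98 in treatment and 25.8 in control, and 440 and 493 reads. The body peak of highest coverage, 81.3 kb inside the lower end, had 1588 reads in treatment and 1835 in control. The control-only peaks of highest fold enrichment were at 28.5 kb below the lower end, in Manba, with 166 reads, and at 21.7 kb above the upper end, with 142 reads. A control-only peak of 364 reads lay 1.02 kb inside the lower end.

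The window of Nfkb2 (chr19:46300994-46312400) held 10 treatment peaks and 14 control peaks, 4 of them control-only, and 10 of 10 shared peaks had lower coverage in treatment. Its lowest ratios were at 4.98 and 2.68 kb beyond its end, in Psd, with 143 reads in treatment and 331 in control, and with 126 and 290. Its peak of highest fold enrichment, 36.6 kb downstream, had 779 reads in treatment and 1199 in control. A control-only peak of 434 reads, at an end shared by Cuedc2 and Fbxl15, was the deepest of the 25 control-only peaks and lay 526 bp from a treatment peak. The 2 control-only peaks with the highest fold enrichment in this window, 7.46 and 5.02, lay in Gbf1, 25.5 and 18.6 kb upstream of the span.

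Rela (chr19:5637442-5648134) had 9 treatment peaks and 10 control peaks, and Relb (chr7:19606217-19629438) had 11 and 9. Both windows are rich in genes, and of their peaks 3 and 3 at Rela and 4 and 4 at Relb lay at ends of other genes, in treatment and control. Relb was the only member with no control-only peak, or 1 of 10, against 13.9% of protein-coding genes with a control peak in the window. A peak in the middle of the Relb span had the highest fold enrichment of its control peaks, 22.8, and 270 reads in treatment against 472 in control. At 35.6 kb above the span, by Clptm1, coverage was 1397 in treatment and 1138 in control. The highest fold enrichment in treatment near Relb, 22.3, was at an end of Clasrp, with 1113 reads in treatment and 1283 in control. In the window of Rela the strongest peak by fold enrichment, 20.6 in treatment and 19.1 in control, was at Rnaseh2c, with 1160 and 1485 reads. The peak at the far end of Rela had 995 reads in treatment and 1284 in control. At Rela the pair of control-only peaks had 72 and 36 reads, and a control peak at an end shared by Pcnx3 and Sipa1 overlapped 2 treatment peaks.

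Nfkbia (chr12:55489409-55492647) had 10 treatment peaks and 11 control peaks, with no other protein-coding gene in its window. A pair of neighbouring peaks beyond its end differed in opposite directions. At 23.7 kb downstream coverage was 235 reads in treatment and 453 in control, with summits 785 bp apart, and at 22.7 kb downstream it was 784 and 424, a ratio of 1.85 (1.64 to 2.09). The peak of highest fold enrichment in each library, 42.5 kb downstream, had 1133 reads in treatment and 1433 in control. The peak at the far end of the gene had 776 and 806. The 2 control-only peaks, 11.9 and 46.0 kb downstream, had 59 and 263 reads.

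Tnfaip3 (chr10:19000910-19015410) was the only inhibitor with more peaks in treatment, 8 against 7 in control, again with no other protein-coding gene in the window. Its strongest peaks by fold enrichment, 28.7 kb upstream, were 19.9 in treatment and 23.6 in control, with 551 and 793 reads. At 47.3 kb upstream coverage was 1105 in treatment and 997 in control. The lowest ratio was 1.38 kb beyond the gene, with 154 and 287 reads, or 0.537 (0.438 to 0.655). Its only control-only peak, of 44 reads, lay in the gene body 608 bp from a treatment-only peak of 68 reads.

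In the window of Nfkbid (chr7:30421731-30428749) there were 15 treatment peaks and 17 control peaks, and 14 of 14 shared peaks had lower coverage in treatment. Its lowest ratio was 11.7 kb upstream, with 114 reads in treatment and 286 in control, a ratio of 0.399 (0.318 to 0.497). The peak of highest fold enrichment among all 10 windows lay 48.0 kb upstream, with 24.4 in treatment and 28.3 in control. Of its 3 control-only peaks the strongest by fold, 11.4, was in Nphs1, 43.8 kb downstream, with 171 reads, and the next, in Kirrel2, had 115 reads. Tyrobp and Hcst, adaptor genes of innate receptors, lie just before Nfkbid. Peaks at their ends had 845 and 1312 reads, and 777 and 1140, in treatment and control. A weaker peak at an end of Tyrobp had 152 and 168.

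Nfkbie (chr17:45555700-45563169) had 17 peaks in each library and 1 control-only peak, of 76 reads. Its 16 shared control peaks had a median ratio of 0.654, with 14 lower in treatment. The exceptions were the peak at Hsp90ab1, a heat shock protein gene, with 1296 reads in treatment and 1166 in control, and the one in Aars2, the strongest of the window by fold enrichment, with 996 and 933. The peak at the far end of Nfkbie, also an end of Slc35b2, had 763 reads in treatment and 1103 in control. Nfkbiz (chr16:55811375-55838954) had 12 treatment peaks and 15 control peaks. On its lower side coverage at 6.37 kb was 127 in treatment and 385 in control, a ratio of 0.330 (0.268 to 0.404), while at 1.39 kb it was 263 and 162, a ratio of 1.62 (1.33 to 1.99). Its strongest peak by coverage, 10.8 kb inside the lower end, had 1546 and 1698 reads. Next to it a single treatment peak of 447 reads spanned 2 control peaks of 431 and 295. The highest fold enrichments near Nfkbiz were in Nxpe3, 13.3 in treatment at 14.1 kb above the upper end and 15.2 in control at 19.7 kb above it. The control-only peaks of Nfkbiz had 63 and 116 reads.

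**Figure D4:**
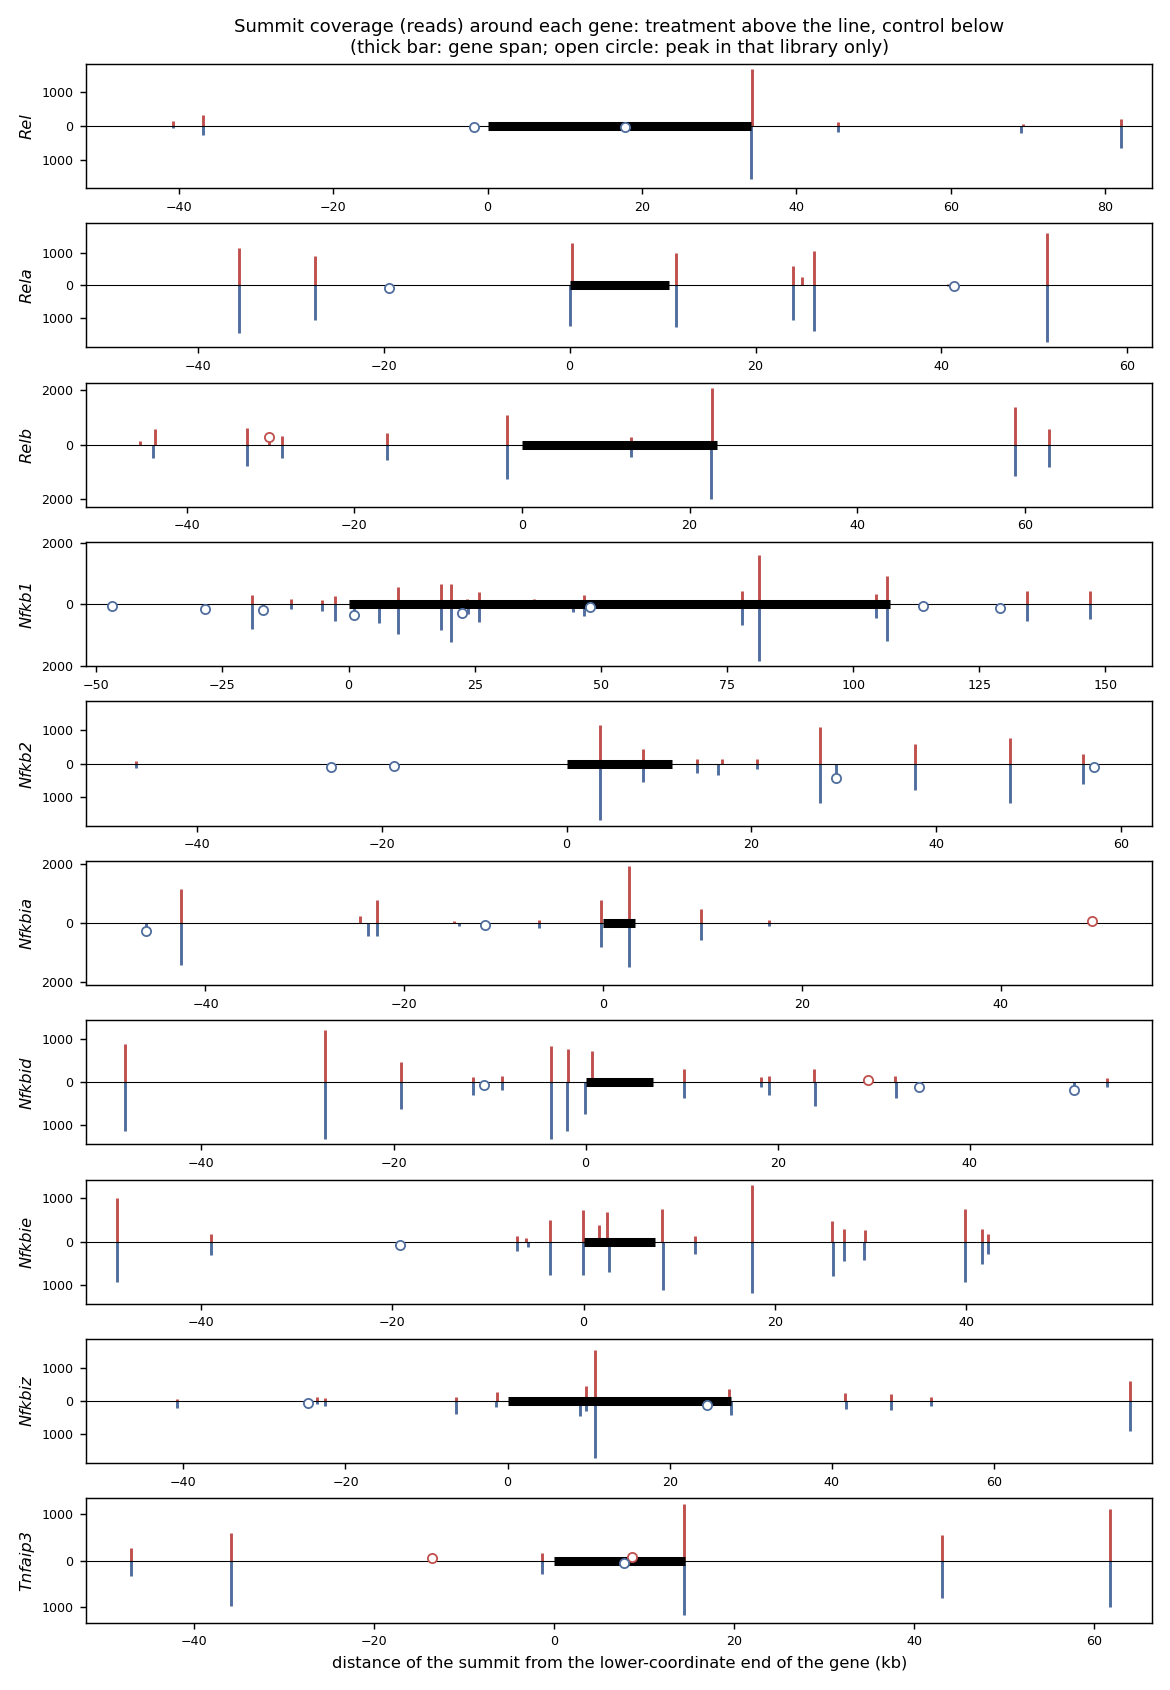
Summit coverage in reads (vertical axis) of every peak in the 10 windows, treatment above the line and control below it, by distance in kb from the lower-coordinate end of the gene. The thick bar is the gene span and open circles mark peaks of 1 library only. In Rel, Relb, Nfkb2, Nfkbia and Tnfaip3 the start peak is the tallest of each library, in the other 5 genes another peak is, and the 8 control-only peaks of Nfkb1 are open circles below its line.

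Over the 10 windows together, 25 of 139 control peaks had no treatment peak, or 18.0% (95% exact interval 12.0 to 25.4%), against 28.4% over the windows of all protein-coding genes. A control peak was lacking at 5 of the 121 treatment peaks, or 4.13% (1.36 to 9.38%), against 6.45% over all windows. No treatment-only peak was found at 6 of 10 members, against 69.2% of genes with a treatment peak in the window. Fewer peaks in treatment were found at 7 of 10 members, against 66.7% of all protein-coding genes and 77.9% of those with any peak in the window. This count was 2 of 10 with lists of equal length, and 3 of 10 with gene spans alone or with 10 kb on each side. More were found at 2 of 10, against 5.32% and 6.22%. Leaving out each member in turn put the control-only share between 15.6%, without Nfkb1, and 19.7%, without Nfkbie. The peaks of a library share its depth and preparation, so the intervals cover counting error only.

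The control-only share was below that of all windows in each quartile of peak strength. In the lowest quartile of fold enrichment of the whole control list, 16 of 32 control peaks of the members were control-only, or 50%, against 61.5% over all windows. In the quartiles above it the shares were 7 of 39 (17.9% against 37.2%), 2 of 37 (5.41% against 12.8%) and 0 of 31 (upper exact limit 11.2%, against 2.28%). Only in the quartile next to the lowest (interval 7.54 to 33.5%) did the exact interval leave out the share of all windows. By fold the member peaks were close to those of all windows, with medians of 7.77 in treatment and 8.05 in control, against 7.42 and 8.21 over all windows. They were deeper in reads, with medians of 317 in treatment and 412 in control, against 196 and 228, and wider, 683 and 630 bp, against 541 and 527 bp. The part of depth and width in the lower control-only share was not tested.

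**Figure D5:**
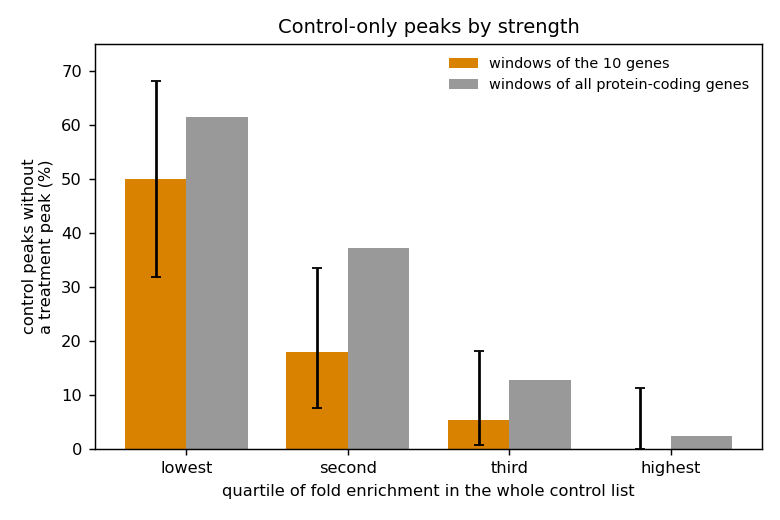
Percentage of control peaks without a treatment peak (vertical axis, from 0), by quartile of fold enrichment in the whole control list, for the windows of the 10 genes (orange, 95% exact intervals) and the windows of all protein-coding genes (grey). The shares go from 50% in the lowest quartile to 0 in the highest, and from 61.5% to 2.28% over all genes.

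By place, the peaks within 1 kb of an end of a member's span were all shared, 12 in treatment and 12 in control. Of the control peaks in the bodies of the members 6 of 29 were control-only, at ends of other genes 1 of 20, in bodies of other genes 10 of 35, and between genes 8 of 43. Taken over any gene end this is 1 of 32 control peaks, against 12.9% in all windows, and away from gene ends 24 of 107, or 22.4%, against 32.1%. Only 36 treatment and 41 control peaks lay in or at the ends of the members themselves, so most peaks of these windows may belong to other genes. The control-only peaks had a median coverage of 100 reads, and 13 of 25 reached 100 reads, against 41.8% of control-only peaks over all windows. By role, 16 of 72 control peaks of the subunits were control-only (22.2%), 8 of 60 of the IkB genes (13.3%) and 1 of 7 of Tnfaip3.

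The treatment-only peaks were few and weak. The deepest, near Relb at chr7:19575870-19576127, had 266 reads and a fold enrichment of 4.19, and lay 30.2 kb below the span and 1118 bp from a control peak. The others had 68 and 50 reads at Tnfaip3, 60 at Nfkbia, 45.9 kb upstream, and 49 in Kirrel2 in the window of Nfkbid. Their fold enrichments ran from 2.33 to 3.801.

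Most other genes of the pathway had fewer peaks in treatment, as most genes did. Of 40 kinases, adaptors, ubiquitin ligases and inhibitors, 31 had fewer peaks in treatment, 4 more and 5 as many, with 526 treatment peaks and 629 control peaks, and a median difference of −3 peaks a gene against −2 over genes with any peak in the window. Fewer peaks at 31 of 40 is 77.5%, against the 77.9% above. The largest gap was at Tbk1, a kinase of innate signalling, with 10 peaks in treatment and 18 in control. In the antigen receptor branch all 4 genes had fewer, among them Malt1, the protease of the complex that links the receptor to NF-kB, with 13 and 20. Traf3, which keeps the alternative pathway in check, had 13 and 19, and Map3k14, the kinase that starts that pathway, 17 and 22. Among negative regulators Otulin, which cuts linear ubiquitin, had 15 and 21, and Tnip2 and Tax1bp1, partners of A20, had 10 and 15, and 9 and 14. The 4 genes with more peaks in treatment each had 1 more: Bcl3, an IkB protein of the nucleus, with 20 and 19, Birc2, a ubiquitin ligase, with 12 and 11, Ikbke with 10 and 9, and Tab3 with 4 and 3.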

How the data were processed

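Per the submitters' processing notes, reads were processed with cutadapt 2.5, Bowtie2 2.3, Picard 2.20 and MACS2 on build mm10, with settings not stated, and 1 peak list is deposited per library. Each deposited peak carries the authors' score, fold enrichment (a ratio), −log10 p-value and −log10 q-value, and the distance from its start to its summit. The libraries were grouped by title.

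Only peaks of chromosomes 1 to 19, X and Y entered. Peaks of both libraries with 1 bp or more in common were called shared. Each shared control peak was paired with the overlapping treatment peak of highest fold. Summit coverage was solved from fold and −log10 p to within 0.001 in −log10 p. The routine was tested on simulated data. Comparing coverage between libraries assumes that the caller ran alike on both. Intervals are exact binomial at 95%, for a coverage ratio on the treatment share of reads. Gene spans and promoters came from RefSeq (GRCm38.p6). A gene end is within 1 kb of an end of the span. Analyses used Python 3.11.15, pandas 2.3.3 and scipy 1.17.1.

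The members and lists were chosen with earlier results of these data known, and the start-peak comparison after seeing the peaks. Named peaks follow a rule: the strongest of each list, those at gene ends, every treatment-only peak and up to 2 control-only peaks per gene, with other peaks named after their values were seen. Pathway genes were named where counts differed by at least 5 peaks or treatment had more, and 1 gene that met this rule is not reported here. The groups were compared without a test, and alternatives are given in the closing section.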

Additional observations from a re-analysis of the deposited data

How the results depend on the processing

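No paired analysis was possible because each group has 1 library. With the control list cut to the length of the treatment list by −log10 p-value, the treatment share of member peaks was 51.1% in place of 46.5%, so that treatment had more peaks, and the control-only share was 6.90% in place of 18.0%. The share over all windows was then 15.95%, still above that of the members. At that setting 2 members had fewer peaks in treatment in place of 7, as against 3 with gene spans alone and 3 with 10 kb on each side. With summits within 150 bp as the rule for sharing, the control-only share was 25.9%, and the treatment-only share 14.9%, above the 12.7% of all windows. At 50% reciprocal overlap the treatment-only share was 12.4%, against 13.9%, and with at least 100 reads at the summit 3.74%, above the 3.13% of all windows. All other settings, planned or added after seeing the data, left these shares inside their main intervals and the median log2 fold ratio at shared peaks, −0.15, below 0. The counts of single genes are fragile: of 60 alternative differences 20 equalled the reported one and 4 changed sign. Rel had 1 peak more in treatment and Rela 2 more with lists of equal length, and Rela had 1 more with a minimum −log10 q-value of 5 and with a minimum coverage of 100 reads. The median start ratio, 1.006, was 1.02 by fold, 1.03 over the 7 genes in the promoter table and 0.981 without Nfkbia, settings added after seeing the data. Depth is known only from the peaks, and a region under the caller's threshold is not shown to be closed.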
